A study of Mus musculus with 18 samples.

Results

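Abundant nuclear and ribosomal-like noncoding RNAs were examined as 6 genes in the RNA of microglia enriched from the mouse striatum: *Gm26917*, *Gm42418*, *Rn7sk*, *Malat1*, *Neat1* and *Meg3*. They were chosen by symbol, for the place they hold among the counts, out of the 55536 Ensembl genes of the count table. Their shares of the counts are therefore a description and carry no test. The study crossed Q175 mice, which carry an expanded CAG repeat knocked into the Huntingtin gene and model Huntington's disease, with mice that lack *Tyrobp*, the gene of the microglial adaptor protein TYROBP (DAP12). It asked how Huntington's disease microglia differ and what the loss of *Tyrobp* changes in them. Striatal cells were dissociated mechanically, and myeloid cells, in this tissue mostly microglia, were held back with beads that bind the surface protein CD11b. The labels give total RNA and a SMART-Seq kit for very small inputs. The methods, which also cover libraries of whole tissue, add a NEB kit for non-directional libraries and the removal of ribosomal RNA by Ribo-Zero, and do not say which libraries these steps apply to, so how much ribosomal RNA had been removed here is not known.

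The groups were 5 WT, 3 *Tyrobp*-/-, 5 Q175 and 5 Q175;*Tyrobp*-/- samples. All were on a C57BL/6 background by the labels (C57Bl6/J in the methods), the Q175 allele was heterozygous by the study's methods, and the *Tyrobp* knockout was constitutive, so it was not confined to microglia. The mice were adults by the study's account. Females gave 1 of the WT, 2 of the *Tyrobp*-/-, 4 of the Q175 and 2 of the Q175;*Tyrobp*-/- samples. The labels give 2 striata per sample and the methods give 1, so p-values measure the spread between these samples.

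These RNAs share no single function. Ribosomes are built around ribosomal RNA, which is cut from a long nucleolar precursor in which spacers lie before and between the mature parts, among them the 18S RNA of the small subunit. *Rn7sk* encodes 7SK, a small RNA made by RNA polymerase III that holds the elongation factor P-TEFb in an inactive particle. *Malat1* is a long nuclear RNA found at splicing speckles, and *Neat1*, its neighbour on the same chromosome, is the RNA scaffold of paraspeckles, which hold proteins and RNAs in the nucleus. *Meg3* is transcribed from the maternal copy of the imprinted Dlk1-Dio3 region and is well known in neurons.

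*Gm26917* and *Gm42418* lie side by side in a ribosomal-like stretch of chromosome 17 (GRCm38, GENCODE release 21 for mouse). *Gm26917* covers chr17:39843013-39846341 on the plus strand, is annotated as a lincRNA of 3329 bases and has a GC content of 69.1%. It ends 11 bases before chr17:39846353, the first base of an 18S-like sequence of 1849 bases (annotated as *CT010467.1*). *Gm42418*, at chr17:39846958-39848788 on the plus strand, has 1831 bases, of which the first 1244 (67.9%) are identical to the end of that 18S-like sequence. Its last 587 bases run past it. The sequences below show this boundary, with the first and the last 20 bases of the 18S-like sequence in capitals and the bases written along the plus strand.
*Gm26917* 3′ end (chr17:39846282-39846341): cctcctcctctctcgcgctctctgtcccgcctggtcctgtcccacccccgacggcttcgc
18S-like 5′ end (chr17:39846353-39846412): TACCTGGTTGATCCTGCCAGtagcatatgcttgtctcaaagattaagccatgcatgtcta
*Gm42418* around the 18S-like end (chr17:39848162-39848261): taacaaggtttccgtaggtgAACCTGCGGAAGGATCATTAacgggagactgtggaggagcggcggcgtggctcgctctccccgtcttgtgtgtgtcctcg
The assignment of counts within this stretch is uncertain. Of the exonic bases of *Gm42418*, 1822 are shared with *AY036118* or *CT010467.1* and 9 are its own. Both of these genes lie on the opposite strand, and the study does not say whether counting used the strand. *AY036118* had 0 counts over the 18 samples, and *CT010467.1* had between 0.00702% and 0.0434% of the counts. Copies of the ribosomal repeat elsewhere in the genome can also share reads with both genes.

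*Rn7sk* is 331 bases long (chr9:78175303-78175633, minus strand). Its first 120 bases are shown because 7SK is recognised by its protein partner HEXIM1 through GAUC motifs near the 5′ end, and the 3 copies of GATC, which reads the same on both strands, are in capitals. Of the 137364 annotated transcripts of at least 120 bases, 0.521% had as many copies of these letters in their first 120 bases.
*Rn7sk* 5′ end (chr9:78175514-78175633): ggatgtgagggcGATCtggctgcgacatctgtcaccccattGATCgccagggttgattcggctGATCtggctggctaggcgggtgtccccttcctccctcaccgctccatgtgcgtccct
*Malat1* (chr19:5795690-5802672, minus strand) has 6983 annotated bases, with a run of A after U-rich elements 298 bases before their end. The run of 12 A, in capitals below, lies at bases 6674 to 6685 of the transcript, and 4.07% of 141767 annotated transcripts hold a run at least as long. The *Malat1* precursor is known to be cut shortly after this run, which releases a small tRNA-like RNA.
*Malat1* 3′ stretch (chr19:5795968-5796109): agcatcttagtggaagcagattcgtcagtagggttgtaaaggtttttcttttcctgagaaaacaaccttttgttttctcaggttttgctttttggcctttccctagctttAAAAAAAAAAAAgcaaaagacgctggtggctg
The longest run of A was 4 bases in *Gm26917*, 6 in *Gm42418*, 3 in *Rn7sk*, 7 in *Neat1* and 16 in *Meg3*. *Neat1* (chr19:5824708-5845478, minus strand) is 20771 bases long. *Meg3* (chr12:109541001-109571726, plus strand) has 11 annotated transcripts with 18089 exonic bases, and its exons overlap those of *Mir770* and *Mir1906-1*.

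Total counts were between 11260410 and 29771983 per sample, so the widest 95% Wilson interval of a member's share spans 0.0493 percentage points. Such intervals cover counting error only, since PCR reads without molecular identifiers are not independent molecules. *Tyrobp* itself had between 196 and 475 CPM (the count per 1e6 of the library, scaled by TMM, edgeR's correction for library composition) in WT and Q175, and between 9.89 and 21.3 in both knockout groups. All 15 microglial markers had counts in all 18 samples, and *Csf1r* was among the 10 most abundant genes. The samples also held RNA of other cells: all markers of astrocytes, neurons and oligodendrocytes were present, with geometric means of 32.8 to 243, 6.85 to 38.0 and 89.2 to 355 CPM against 584 to 1374 for microglia. Fewer cells of a type and less RNA per cell cannot be told apart in such bulk samples. A pair of libraries stood apart: *Tyrobp*-/- replicate 20 and Q175 replicate 14 had 6.12% and 7.26% of their counts on mitochondrially encoded genes, while the others had between 0.620% and 2.83%, and their neuron marker levels of 35.2 and 38.0 CPM were the highest.

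The 6 genes together took between 15.1% and 33.2% of all counts in a sample, with a mean of 22.8% ± 5.60 (SD, n = 18). *Gm26917* and *Gm42418* ranked first and second in every sample, with mean shares of 15.1% and 4.59%. *Rn7sk* and *Malat1* held ranks 3 to 5 in each sample, with means of 1.54% and 1.46%, above *mt-Co1*, a mitochondrially encoded subunit of cytochrome c oxidase, at 1.08%. *Meg3* ranked 61st by mean share, between *Abca9* and *Arhgap5*, at 0.0855%, and *Neat1* ranked 294th, between *Pnisr* and *Ptbp3*, at 0.0295%. The label abundant therefore holds for the first 4 and less for the last pair. Whether an RNA was nuclear could not be checked, because whole cells were lysed. Of the counts on long noncoding genes, the members held 90.6% ± 3.29, and *Rn7sk* held 62.4% ± 6.07 of those on small noncoding genes (SD, n = 18). The first value rests on *Gm26917* and *Gm42418*, which are annotated as lincRNA but lie in the ribosomal-like stretch. That pair held a mean of 19.7% of all counts, while all long noncoding genes held 23.3%.

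Counts of different genes were set side by side per length. How far the library method captured each RNA was not examined, so the order describes counts and not amounts in the cells. In CPM per kilobase of exon, the mean was 47216 for *Rn7sk* and 46735 for *Gm26917*, then 25855 for *Gm42418*, 2089 for *Malat1*, 49.2 for *Meg3* and 14.4 for *Neat1*. The length is that of all annotated exons of a gene, and which transcripts were present was not examined. For *Gm42418* the assignment of counts is uncertain, as given above. The order of the first pair did not exceed their spread, with SDs of 22330 and 17759 over 18 samples. Per base, *Malat1* had far more counts than *Neat1*, its neighbour.

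**Figure D1:**
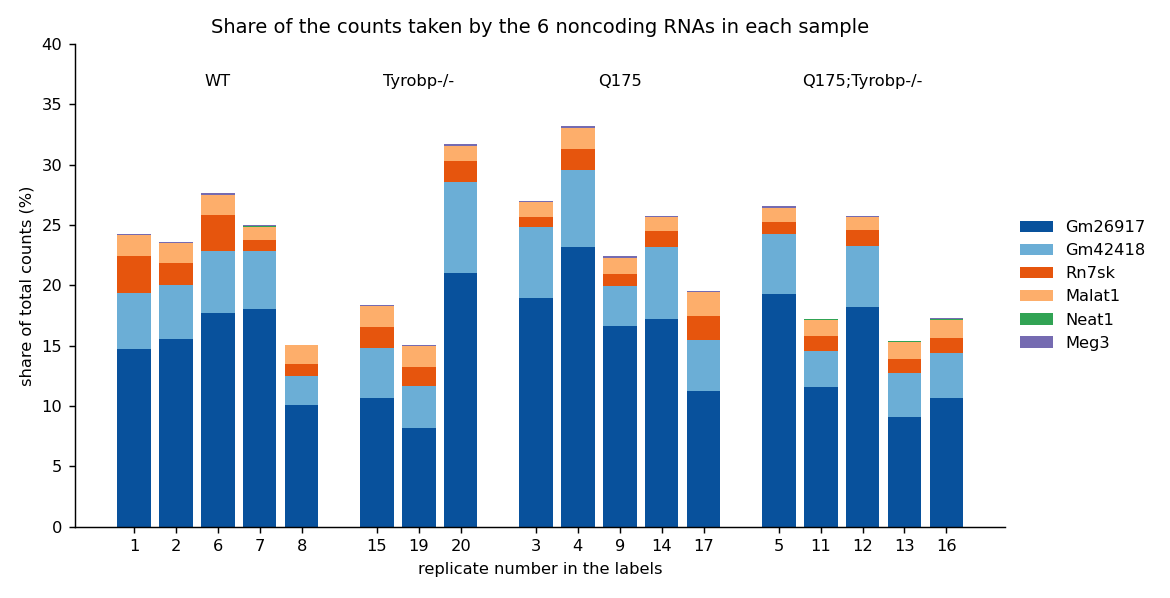
Share of the total counts (y axis, percent) taken by the 6 noncoding RNAs in each of the 18 samples (x axis, by replicate number within genotype), stacked by gene. *Gm26917* and *Gm42418* make up most of every bar, and *Neat1* and *Meg3*, with mean shares of 0.0295% and 0.0855%, are too thin to read.

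*Gm26917* took 14.8%, 15.6%, 17.7%, 18.02% and 10.1% of the counts in the 5 WT samples. In *Tyrobp*-/- microglia it took 10.7%, 8.22% and 21.03%, where the last value is replicate 20. In Q175 its shares were 18.95%, 23.2%, 16.6%, 17.2% and 11.2%, and in Q175;*Tyrobp*-/- 19.3%, 11.6%, 18.2%, 9.09% and 10.6%. High and low samples occurred in every genotype and all groups overlapped.

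*Gm42418* took 4.64%, 4.49%, 5.13%, 4.83% and 2.36% in WT and 4.15%, 3.46% and 7.52% in *Tyrobp*-/-. Its shares were 5.88%, 6.35%, 3.34%, 5.93% and 4.21% in Q175, and 4.93%, 2.97%, 5.05%, 3.65% and 3.77% in Q175;*Tyrobp*-/-. The same *Tyrobp*-/- library was again the highest of its group. Within a sample, *Gm26917* had between 2.37 and 4.98 counts for each count of *Gm42418*. This ratio was 2.37, 2.57 and 2.80 in *Tyrobp*-/-, below the range of 3.18 to 4.28 in WT, and it was 2.67 to 4.98 in Q175 and 2.49 to 3.91 in Q175;*Tyrobp*-/-. It was not tested, since it was singled out after its values were seen.

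*Rn7sk* took 3.04%, 1.85%, 2.996%, 0.875% and 0.956% of the counts in WT, the widest spread of any group. It took 1.70%, 1.58% and 1.71% in *Tyrobp*-/-, 0.874%, 1.73%, 0.947%, 1.36% and 2.04% in Q175, and 1.02%, 1.27%, 1.31%, 1.14% and 1.26% in Q175;*Tyrobp*-/-. The WT samples fell on both sides of both knockout groups and spanned most of the Q175 range. *Malat1* had shares of 1.70%, 1.60%, 1.62%, 1.15% and 1.57% in WT, 1.76%, 1.71% and 1.28% in *Tyrobp*-/-, 1.18%, 1.73%, 1.35%, 1.13% and 1.98% in Q175, and 1.18%, 1.32%, 1.04%, 1.46% and 1.496% in Q175;*Tyrobp*-/-. It was the steadiest member, with a coefficient of variation of 18.5% over the 18 samples in CPM. Those of *Gm26917*, *Gm42418*, *Neat1*, *Rn7sk* and *Meg3* were 38.0%, 38.8%, 46.7%, 47.3% and 56.3%, against a median of 25.9% over the 200 most abundant genes.

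*Meg3* stood at 964, 609, 1587, 1243 and 252 CPM in WT and at 334, 546 and 2239 CPM in *Tyrobp*-/-. It stood at 687, 1062, 1011, 1049 and 518 CPM in Q175, and at 1277, 303, 849, 485 and 1009.9 CPM in Q175;*Tyrobp*-/-. *Tyrobp*-/- replicate 20 was the highest of all samples and WT replicate 8 the lowest, an 8.90-fold range.

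*Neat1* stood at 486, 359, 395, 213 and 277 CPM in WT and at 147, 126 and 189 CPM in *Tyrobp*-/-. All 3 *Tyrobp*-/- samples were below all 5 WT samples. In Q175 the values were 409, 705, 365, 272 and 217 CPM, and in Q175;*Tyrobp*-/- 264, 272, 294, 183 and 213 CPM. These last groups overlapped, with Q175;*Tyrobp*-/- lower in 20 of 25 pairs of samples.

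**Figure D2:**
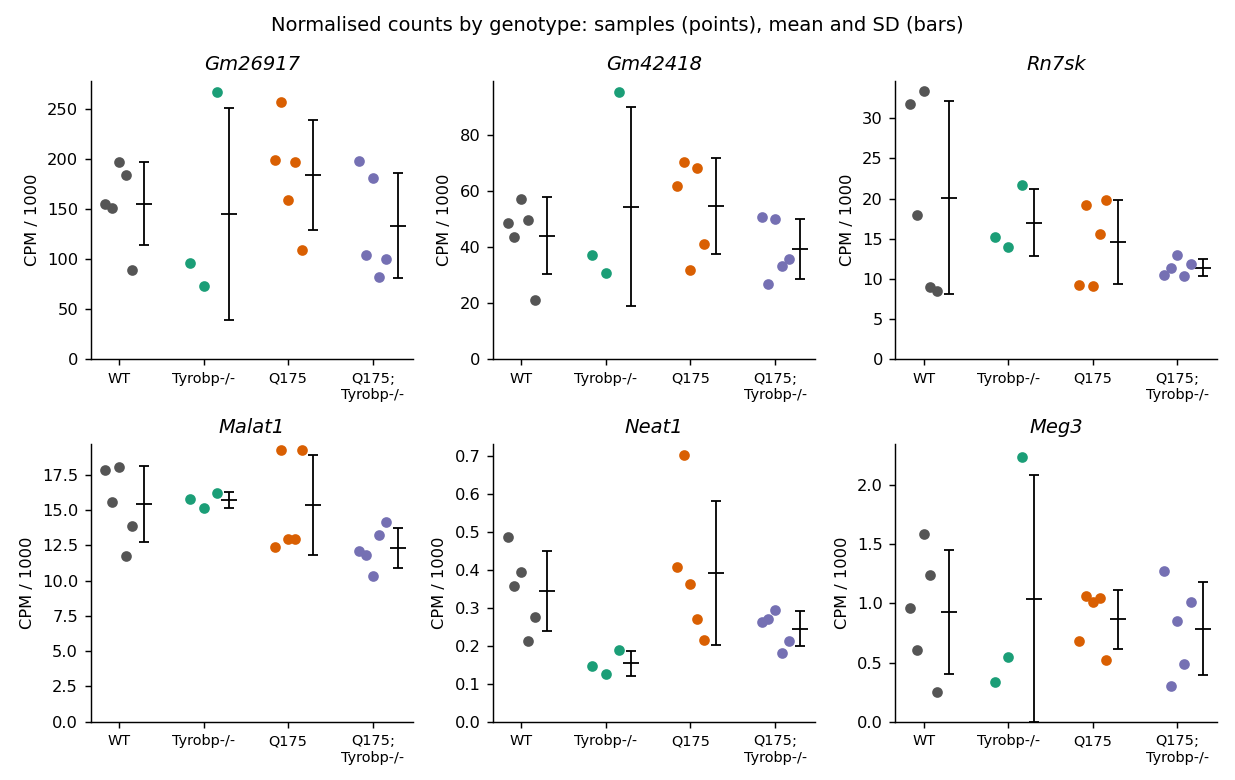
Normalised counts (CPM, divided by 1000 on the y axis) of each RNA by genotype; points are samples and bars are the mean and SD of 5 WT, 3 *Tyrobp*-/-, 5 Q175 and 5 Q175;*Tyrobp*-/- samples. *Neat1* is the panel in which the *Tyrobp*-/- points (126 to 189 CPM) lie below all WT points (213 to 486 CPM), and in the *Gm26917*, *Gm42418* and *Meg3* panels the high *Tyrobp*-/- point is replicate 20.

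The loss of *Tyrobp* without the Q175 allele was compared in *Tyrobp*-/- and WT microglia. *Neat1* had a log2 fold change of -1.10 (SE 0.29), with means of 154 ± 32.2 CPM in *Tyrobp*-/- (SD, n = 3) and 346 ± 106 in WT (SD, n = 5). It did not pass edgeR's quasi-likelihood test over all genes (Benjamini-Hochberg adjusted p = 0.565), in which 0.0222% of the 18017 genes tested were called at a false discovery rate (FDR) of 0.1. *Neat1* was the only member with an unadjusted p under 0.05, as were 6.82% of all genes tested. In DESeq2 its adjusted p was 0.0505, past the same threshold, with 0.932% of the genes called. *Neat1* was also the only member whose groups did not overlap, while 4.48% of the genes tested did not overlap in either direction and 3.28% did so with *Tyrobp*-/- lower. *Neat1* was chosen with earlier results of these libraries known, so the difference is not independent evidence. Leaving out each sample in turn gave -1.27 to -0.95, adding sex to the fit -0.93 and adding a score of astrocyte, neuron and oligodendrocyte markers -1.25. The microglial markers stood at 906 to 1374 CPM in *Tyrobp*-/- and at 811 to 1150 in WT, and the 8 macrophage and monocyte markers at 3.83 to 6.12 against 0.826 to 4.80. The part of these in the *Neat1* values was not tested.

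*Malat1*, the neighbour of *Neat1*, differed by 0.10 (SE 0.32, edgeR adjusted p = 0.999) between *Tyrobp*-/- and WT. Within a sample, there were 107, 120 and 85.6 counts of *Malat1* for each count of *Neat1* in the 3 *Tyrobp*-/- samples, and 36.7 to 55.0 in WT. This ratio sets the *Neat1* values just given against those of its neighbour. It was singled out after its values were seen and was not tested. It was 27.3 to 88.8 in Q175 and 35.1 to 72.3 in Q175;*Tyrobp*-/-. The other members differed between *Tyrobp*-/- and WT by -0.05 for *Gm26917* (SE 0.57), 0.36 for *Gm42418* (SE 0.51), -0.18 for *Rn7sk* (SE 0.53) and 0.21 for *Meg3* (SE 0.64), each with an edgeR adjusted p of 0.999. Replicate 20 set several of these values: without it, the differences were -0.81 for *Gm26917* (SE 0.38), -0.30 for *Gm42418* (SE 0.38) and -0.997 for *Meg3* (SE 0.58).

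**Figure D3:**
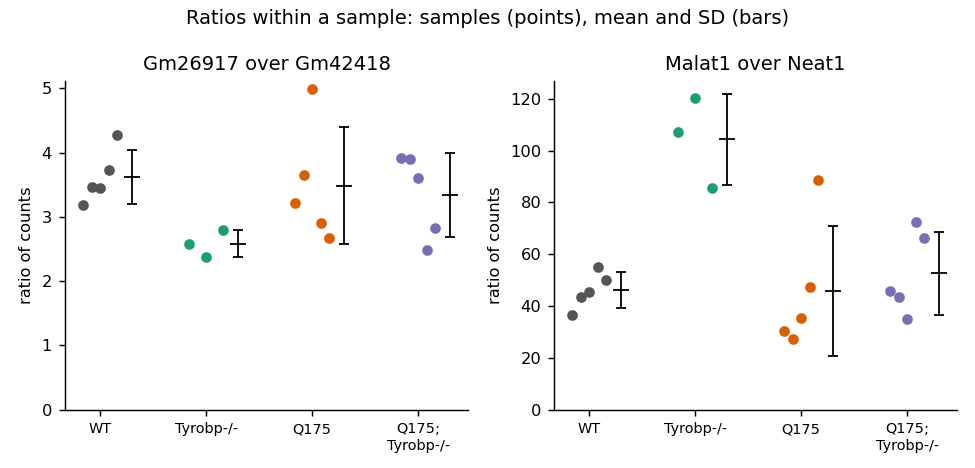
Ratios of counts within each sample (y axis, no unit) by genotype; points are samples and bars are the mean and SD. *Malat1* over *Neat1* is 85.6 to 120 in *Tyrobp*-/- and 36.7 to 55.0 in WT, and *Gm26917* over *Gm42418* is 2.37 to 2.80 against 3.18 to 4.28.

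The effect of the Q175 allele was compared in Q175 and WT microglia. None of the 6 members passed the test, and the groups overlapped for each of them, while 1.08% of the genes tested did not overlap. edgeR called 0% of the 18266 genes, while DESeq2 called 234 (1.28%) and 1140 (6.24%) had an unadjusted p under 0.05, none of them a member. *Rn7sk* had a log2 fold change of -0.43 (SE 0.43), *Gm42418* 0.34 (SE 0.34), *Gm26917* 0.27 (SE 0.34), *Neat1* 0.19 (SE 0.30), *Meg3* -0.07 (SE 0.39) and *Malat1* 0.02 (SE 0.25). *Malat1* turned negative with the size factors of DESeq2 (-0.00023) and with total counts (-0.05), and was 0.04 with TMM computed without the 6 genes. Leaving out WT replicate 8 gave 0.15 for *Gm42418* and 0.12 for *Gm26917*, leaving out WT replicate 6 gave -0.18 for *Rn7sk*, and the score of other cell types as a term gave 0.73 for *Neat1* and -0.93 for *Rn7sk*. Females gave 4 of the 5 Q175 and 1 of the 5 WT samples. With sex as a term, *Gm42418* was -0.036 and 246 genes had an unadjusted p under 0.05. Of 12 astrocyte markers, 11 had an unadjusted p under 0.05, all higher in Q175 (median 1.52), as had all 12 mitochondrially encoded protein genes tested (median 1.73), and DESeq2 called 8 of each list. The astrocyte markers stood at geometric means of 67.7 to 243 CPM in Q175 and 34.7 to 53.0 in WT, and their part in the members' values was not tested.

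The loss of *Tyrobp* on the Q175 background was compared in Q175;*Tyrobp*-/- and Q175 microglia. All 6 fitted differences were below 0, with a median of -0.41 against -0.05 over all 18059 genes tested, and none passed edgeR, which called 0.0111% of the genes. The 6 are not independent: over the 18 samples *Gm26917* and *Gm42418* had a Pearson r of 0.87, and *Rn7sk* and *Malat1* 0.76. *Meg3* became 0.065 without Q175;*Tyrobp*-/- replicate 11. *Neat1* had a log2 fold change of -0.68 (SE 0.28, edgeR adjusted p = 0.533) and was the only member with an unadjusted p under 0.05, a mark that 8.01% of the genes reached. No member was without overlap between these groups, against 0.858% of all genes. The *Neat1* difference was -0.36 without Q175 replicate 4, the sample with the highest *Neat1* and, at 584 CPM, the lowest microglial marker level of the 18. *Gm42418* differed by -0.48 (SE 0.32), *Gm26917* by -0.47 (SE 0.38), *Rn7sk* by -0.36 (SE 0.27), *Malat1* by -0.32 (SE 0.23) and *Meg3* by -0.14 (SE 0.35). DESeq2 called 41 genes (0.227%) and no member. Beside these values, 7 of 12 markers of medium spiny neurons, the main neurons of the striatum, had an unadjusted p under 0.05, all lower in Q175;*Tyrobp*-/- (median -1.10), and so had 4 of 8 endothelial markers (median -0.85 over the 8), with 1 higher. edgeR and DESeq2 called 0 of either list. The medium spiny neuron markers stood at geometric means of 8.41 to 37.1 CPM in Q175;*Tyrobp*-/- and 9.41 to 51.9 in Q175, the endothelial markers at 1.44 to 2.72 and 2.70 to 4.23, and their part in the members' values was not tested.

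The interaction of the Q175 allele and *Tyrobp* loss, which asks whether the allele acts differently with and without *Tyrobp*, was estimated at 0.48 for *Neat1* (SE 0.42, edgeR adjusted p = 0.757). It was -0.78 for *Gm42418* (SE 0.56), -0.37 for *Gm26917* (SE 0.63), -0.34 for *Malat1* (SE 0.32), -0.30 for *Meg3* (SE 0.77) and -0.11 for *Rn7sk* (SE 0.56). Without *Tyrobp*-/- replicate 20 it was -0.16 for *Gm42418*, 0.36 for *Gm26917* and 0.87 for *Meg3*, and with sex as a term it was -0.20 for *Gm42418*. edgeR called 0% of 18613 genes, with 1118 (6.01%) at an unadjusted p under 0.05, none of them a member. The 2 genes called by DESeq2 (0.0107%) were not members either. A difference in the *Neat1* response between the backgrounds was not shown.

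**Figure D4:**
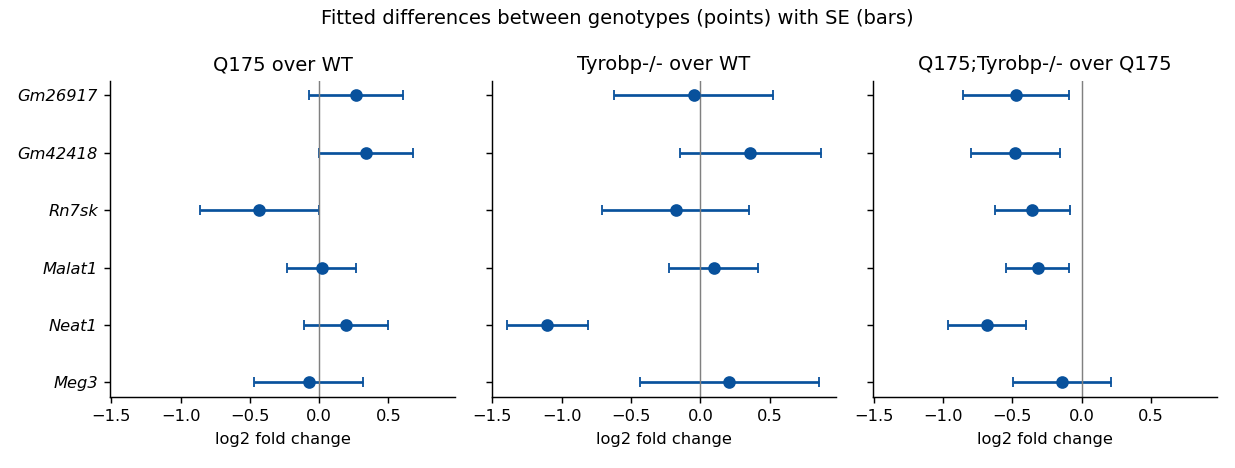
Fitted log2 fold changes (x axis) of the 6 RNAs in the 3 comparisons of genotypes, as points with their SE as bars; the grey line marks no difference. *Neat1* lies at -1.10 in *Tyrobp*-/- over WT and at -0.68 in Q175;*Tyrobp*-/- over Q175, and no point passed edgeR's adjusted threshold.

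Proteins that work with these RNAs were examined as lists. Of the 7 genes of the 7SK particle, which hold or form P-TEFb (*Ccnt2*, *Cdk9* and *Ccnt1* among them), 0 were called and 0 had an unadjusted p under 0.05 in edgeR or a call in DESeq2 in any comparison, and their median difference was between -0.03 and 0.12. The same held for the 8 paraspeckle proteins, such as *Sfpq* and *Hnrnpk*, with medians of -0.09 to 0.10. Where *Neat1* stood at -1.10, in *Tyrobp*-/- over WT, these listed protein partners had a median of -0.0041, in a range of -0.19 to 0.25. Of 10 speckle proteins, such as *Srrm2*, *Son* and *Srsf3*, 0 were called. In *Tyrobp*-/- over WT 1 of them had an unadjusted p under 0.05, lower, where 6.82% of all genes had one. Of the 16 genes of RNA polymerase I and the nucleolus, which make and process ribosomal RNA (*Ncl* and *Ubtf* among them), 0 were called and 0 had an unadjusted p under 0.05, with medians of -0.04 to 0.05.

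Other noncoding RNAs were described in the same way. Of 23 small structured RNAs, most of them made, like 7SK, by RNA polymerase III or part of small ribonucleoproteins, 16 were tested and 0 called. In Q175;*Tyrobp*-/- over Q175 their median was -0.59, against -0.05 over all genes tested. There 3 had an unadjusted p under 0.05, all lower, where 8.01% of all genes had one in either direction. *Scarna2*, a guide RNA of Cajal bodies, had a mean of 1079 CPM and *Snord17*, a nucleolar guide RNA, 677 CPM. *Rian* and *Mirg* were the only 2 of 6 other genes of the Dlk1-Dio3 region that were tested. In *Tyrobp*-/- over WT they differed by -0.37 (SE 0.56) and -1.36 (SE 0.54). *Meg3* had 0.21 (SE 0.64) there, and -0.997 (SE 0.58) without *Tyrobp*-/- replicate 20. Of 7 other genes with ribosomal RNA-like sequence or of mitochondrial ribosomal RNA, 5 were tested and 0 were called by edgeR, and 4 had an unadjusted p under 0.05, all higher, in Q175 over WT and 4 in *Tyrobp*-/- over WT, where 6.24% and 6.82% of all genes did. Both comparisons use the same WT samples. The mitochondrial *mt-Rnr1* and *mt-Rnr2* differed by 1.92 (SE 0.62) and 1.99 (SE 0.67) in Q175 over WT and by 2.46 (SE 0.82) and 2.13 (SE 0.75) in *Tyrobp*-/- over WT, with edgeR adjusted p-values of 0.446 to 0.610. DESeq2 called 1 of the 5 in each of these comparisons, *Lars2*, the mitochondrial leucyl-tRNA synthetase (edgeR log2 fold changes 1.54 and 1.02, DESeq2 adjusted p = 0.0524 and 0.0879). It called 1.28% and 0.932% of all genes there. The libraries high in mitochondrial counts are in the Q175 and *Tyrobp*-/- groups. In *Tyrobp*-/- over WT, 8 of 12 astrocyte markers (median 1.11) and 9 of 12 mitochondrially encoded protein genes (median 1.90) also had an unadjusted p under 0.05, all higher, beside the 11 and 12 in Q175 over WT. The part of these in the values of the ribosomal RNAs and *Lars2*, and in that of the neural *Rmst*, was not tested. *Gm26917* and *Gm42418* had differences of -0.05 to 0.36 in these comparisons. Of 33 other long noncoding RNAs tested, 0 were called by edgeR. In *Tyrobp*-/- over WT, 4 of them had an unadjusted p under 0.05 with a lower level and 2 with a higher level. Their differences there ran from -1.78 to 1.95, and 6.82% of all genes had such a p in either direction. In Q175;*Tyrobp*-/- over Q175, 0 were lower and 1 higher at that mark. In Q175 over WT, DESeq2 called 1.28% of all genes and, among these RNAs, *Rmst*, a neural noncoding RNA, as higher. Its DESeq2 adjusted p was 0.0361 (edgeR log2 fold change 1.65, SE 0.43). The 5 protein coding neighbours of *Malat1* and *Neat1* tested, *Slc25a45*, *Frmd8* and *Dpf2* among them, had 0 calls. In *Tyrobp*-/- over WT their median was 0.05, in a range of -0.58 to 0.27, and 0 had an unadjusted p under 0.05. In Q175;*Tyrobp*-/- over Q175 their median was -0.10, in a range of -0.80 to 0.31. There 1 of the 5 had an unadjusted p under 0.05, lower, where 8.01% of all genes had one in either direction.

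How the members varied together was examined over the 18 samples in log2 CPM, in a family of 39 relations with 2-sided permutation tests and Benjamini-Hochberg adjustment. *Gm26917* and *Gm42418* varied together (Pearson r = 0.87, permutation p = 1e-05, adjusted p = 0.00039; Spearman rho = 0.90, permutation p = 1e-05, adjusted p = 0.000195), and 1e-05 is the smallest p these permutations can give. The r was 0.88 without the 2 samples farthest from the median and 0.90 for deviations from the group means. *Gm26917* and *Neat1* passed by Pearson r only (r = 0.60, adjusted permutation p = 0.036), with rho = 0.48 (adjusted permutation p = 0.146). Their r was 0.44 without the 2 farthest samples and 0.78 without both libraries high in mitochondrial counts. *Rn7sk* went with *Malat1* (r = 0.76, adjusted permutation p = 0.0015; rho = 0.74, adjusted permutation p = 0.0056), and r was 0.71 without the 2 farthest samples. *Malat1* and *Neat1*, neighbours on chromosome 19, did not pass (r = 0.21, adjusted permutation p = 0.589; rho = 0.09, adjusted permutation p = 0.906).

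*Meg3* went with the neuron markers (r = 0.83, adjusted permutation p = 0.000585; rho = 0.85, adjusted permutation p = 0.000195). Its r was 0.74 without the 2 farthest samples, 0.88 within groups and 0.85 without both libraries high in mitochondrial counts. The neuron markers are *Syt1*, *Rbfox3*, *Eno2* and 7 others, with a geometric mean level far below that of the microglial markers. *Gm26917* and *Gm42418* went with *Meg3* (r = 0.78 and 0.79) and with the neuron markers (r = 0.67 and 0.76), and the last pair fell to 0.59 and 0.64 without both libraries. With total counts as scaling, *Gm26917* and the neuron markers had an r of 0.49.

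*Neat1* went against the microglial markers (r = -0.79, adjusted permutation p = 0.00109; rho = -0.72, adjusted permutation p = 0.0074). This r was -0.60 without the 2 farthest samples, -0.76 within groups and -0.55 with total counts as scaling. *Gm26917* also went against them (r = -0.75, adjusted permutation p = 0.0015; rho = -0.70, adjusted permutation p = 0.0074), with r = -0.69 without the 2 farthest samples. So did *Gm42418* (r = -0.57, adjusted permutation p = 0.04425; rho = -0.59, adjusted permutation p = 0.0391), with r = -0.68 without the 2 farthest samples, and *Meg3* passed by rank only (r = -0.56, adjusted permutation p = 0.0532; rho = -0.63, adjusted permutation p = 0.025). All values of a sample share its library and its scaling, and *Gm26917* alone is a large share of the total that scales them. The TMM factors ran from 0.788 to 1.13 over the samples, and from 0.895 to 1.08 when they were computed without the 6 genes.

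**Figure D5:**
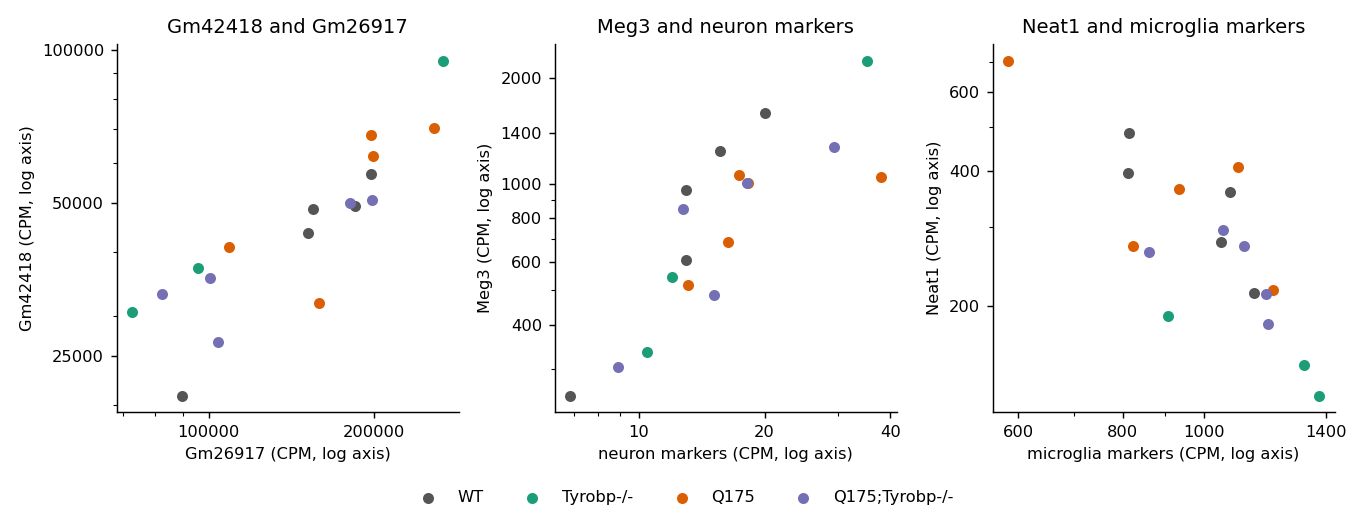
Levels in each of the 18 samples on log axes (CPM), coloured by genotype: *Gm42418* against *Gm26917*, *Meg3* against the geometric mean of 10 neuron markers, and *Neat1* against that of 15 microglia markers. The first and second panels rise (r = 0.87 and 0.83), and the third falls (r = -0.79), with the *Tyrobp*-/- samples at its lower edge.

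The genes whose log2 CPM was most like each member over the 18 samples were sought among 13506 genes with at least 1 CPM in every sample. *Meg3* was most like *Adgrl3*, an adhesion receptor of synapses (r = 0.94), and *Rbfox3*, the neuronal nuclear protein NeuN (r = 0.94). *Gm26917* was most like *Soga3* and *Map6*, a protein that stabilises microtubules (both r = 0.97), and *Gm42418* like *Scarna2* (r = 0.93). *Rn7sk* was most like *Slc35b1*, *Spcs2*, a subunit of the signal peptidase, and *Capza2*, an actin capping protein (all r = 0.97). *Malat1* was most like *Sypl* (r = 0.90) and *Scai* (r = 0.90), and *Neat1* like *Gm17833*, a processed pseudogene (r = 0.96), *Srpk3*, a kinase of splicing factors (r = 0.95), and *Sbf1* (r = 0.95). These are the highest of many correlations and are given as a description.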

How the data were processed

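RNA sequencing of CD11b-enriched striatal microglia was analysed in 18 samples. Reads were mapped by the authors with STAR to GRCm38 and assigned to genes with featureCounts. The deposited counts are whole numbers of reads per Ensembl gene, without normalization. The methods name a UCSC gene model, the labels list a human build, and all 55536 identifiers matched GENCODE release 21 for mouse, from which symbols, positions and transcript sequences were taken. Total counts were between 11260410 and 29771983 per sample. The table has 2 more sample columns, which were not used. The 6 members and the gene lists were chosen with earlier results of these data known.

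A gene entered a comparison if any of its samples reached 1 CPM, and edgeR 4.0.16 in R 4.3.3 was used (TMM, quasi-likelihood test, Benjamini-Hochberg FDR 0.1, no covariate) on the groups compared, and over all 4 groups for the interaction. SEs are the log2 fold change divided by the square root of its F statistic. Relations were tested with 100000 permutations on log2 CPM (prior count 2). Marker levels are geometric means of CPM. Named are the members, up to 3 genes per list by mean CPM and those called, the genes most like a member and those next to it in rank. Some genes are not reported here. Alternatives were DESeq2 1.42.0, other scalings and filters, an FDR of 0.05, 1 fit over all groups, sex or a score of astrocyte, neuron and oligodendrocyte markers as a term, and leaving out each sample. Leaving out both libraries high in mitochondrial counts was added after seeing the data. The fits were tested on simulated data.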

Additional observations from a re-analysis of the deposited data

How the results depend on the processing

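No paired analysis was possible because the groups share no replicate number. Of the 24 member differences, none passed an FDR of 0.1 in any alternative except *Neat1* in *Tyrobp*-/- over WT, at -1.10 with DESeq2 (adjusted p 0.0505, 0.0505 to 0.991 over the alternatives other than leaving out samples). *Neat1* kept its sign in both comparisons of *Tyrobp* loss. Several differences that did not pass the test changed sign, and the cause was not tested. With sex as a term, *Gm42418* in Q175 over WT became -0.036, *Rn7sk* and *Meg3* in *Tyrobp*-/- over WT 0.18 and -0.25, and the interaction of *Gm26917* and *Meg3* 0.10 and 0.17. With the score of other cell types as a term, *Meg3* in Q175 over WT became 0.015, *Gm42418* and *Meg3* in *Tyrobp*-/- over WT -0.21 and -0.92, and the interaction of *Gm26917*, *Rn7sk* and *Meg3* 0.065, 0.046 and 0.63. *Malat1* in Q175 over WT became -0.00023 with DESeq2 and with its size factors, -0.0498 with total counts, -0.0057 without a filter and -0.0066 in 1 fit over all groups. With total counts the interaction of *Rn7sk* became 0.0064. That scaling moved the median of all genes from -0.05 to 0.08 in Q175;*Tyrobp*-/- over Q175, and the genes with an unadjusted p under 0.05 there from 623 higher and 823 lower to 1193 and 451.

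Leaving out each sample gave, in Q175 over WT, -0.11 to 0.090 for *Malat1*, -0.10 to 0.34 for *Neat1* and -0.33 to 0.20 for *Meg3*. In Q175;*Tyrobp*-/- over Q175 it gave -0.42 to 0.065 for *Meg3*. In *Tyrobp*-/- over WT it gave -0.81 to 0.27 for *Gm26917*, -0.30 to 0.64 for *Gm42418*, -0.38 to 0.086 for *Rn7sk*, -0.00039 to 0.15 for *Malat1* and -0.997 to 0.62 for *Meg3*. For the interaction it gave -0.69 to 0.36 for *Gm26917*, -0.37 to 0.086 for *Rn7sk* and -0.72 to 0.87 for *Meg3*.

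Genes called in Q175 over WT numbered 0 with edgeR and 234 with DESeq2. In Q175;*Tyrobp*-/- over Q175 there were 2, with 41 in DESeq2, 9 without a filter, 14 in 1 fit over all groups, 1 at an FDR of 0.05, 1 with either term and 1 to 5 on leaving out a sample. In *Tyrobp*-/- over WT there were 4, with 168 in DESeq2, 15 without a filter, 8 in 1 fit, 2 with the score and 2 to 8 on leaving out a sample. The interaction had 0, and 2 in DESeq2.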
